A study of Mus musculus with 3 samples.

Results

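The genes described here encode the enzymes, helper proteins, membrane proteins and proton pump of the lysosome. They are 39 protein-coding genes chosen by name, out of 22202 protein-coding genes of the GENCODE M1 annotation (mouse build mm9) on chromosomes 1 to 19 and X. Of them, 13 encode enzymes that act on sugar chains, 9 encode enzymes and helpers for lipids and proteins, 8 encode membrane proteins, and 9 encode subunits of the proton pump. Binding of RNA polymerase II (Pol_II) phosphorylated at serine 5 of its C-terminal repeats (Ser5-P) was measured by ChIP-Seq in bone marrow-derived macrophages of female Fvb mice on the 7th day of differentiation. Cells were left untreated or received LPS, a cell wall component of Gram-negative bacteria, at 10 ng/ml for 2 h. The 3 libraries were Ser5-P Pol_II untreated with 7616771 aligned tags, Ser5-P Pol_II after LPS with 6249819, and input DNA of untreated cells with 7533308. There was 1 library for each condition, so no difference could be tested against the spread between cultures or animals. The 95% intervals on counts, densities and ratios cover counting error only, those on medians are order-statistic intervals over genes, and tags that share a start may be PCR copies of 1 fragment.

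The libraries matched their labels. All 10 genes of an LPS response list, among them Ccl5, Tnf and Cxcl10, had at least 2 times more tags after LPS, counted over the gene body as TPM, tags per 1000000 tags of the library. All 8 macrophage markers had a Ser5 peak at the transcription start site (TSS) in both libraries, with untreated gene-body densities from 1.16 TPM per kb for Mertk to 105 for Lyz2. No marker of B cells, fibroblasts, erythroid cells or dendritic cells had a TSS peak, whereas 1 of 4 T-cell and 1 of 5 neutrophil markers did. Their summed densities in the untreated, LPS and input libraries were 5.2, 4.33 and 2.63 TPM per kb for T cells, 3.42, 4.57 and 3.49 for neutrophils, 1.34, 1.67 and 2.37 for B cells, 0.458, 0.434 and 1.09 for fibroblasts, 0.226, 0.236 and 0.893 for erythroid cells, and 0.418, 0.502 and 1.19 for dendritic cells, with Hba-a1 at 0 in all 3. After LPS 4 of the 8 macrophage markers were at least 2 times lower over the gene body, Csf1r at 0.449 (0.422 to 0.477), Cd68 at 0.263 (0.216 to 0.317), Itgam at 0.229 (0.195 to 0.269) and Lyz2 at 0.405 (0.381 to 0.431), and Emr1 and Cd14 were at least 2 times higher, at 3.01 (2.86 to 3.17) and 3.18 (2.9 to 3.5). Of all coding genes with 10 or more tags, 11.2% were at least 2 times lower and 5.83% at least 2 times higher. The part of these markers and cells in the results below was not tested.

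The lysosome is the acidic compartment in which macrophages break down what they take up and their own worn parts. Soluble hydrolases cut sugar chains, lipids and proteins there, membrane proteins shield the limiting membrane and carry the products out, and the V-ATPase acidifies the lumen. That pump has a membrane-bound V0 sector, which carries protons, and a V1 sector in the cytosol, which hydrolyses ATP. Many lysosomal genes are known to carry an E-box-type element in the promoter, read by transcription factors of the MiT/TFE family such as TFEB. Ser5-P marks Pol_II that has begun to transcribe, so that it gathers near start sites and thins out along the gene.

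The element is shown first, because it is a feature of the promoters that did not enter the choice of the genes. Promoters were read from the mm9 genome as 250 bases before to 50 bases after the TSS, and both strands were searched for CACGTG, the palindromic E-box, for TCACGTGA, the longer palindrome that contains it, and for GAGGAAGT, a site of the ETS type. CACGTG was found in 12 of the 39 promoters (30.8%), and in 7.8% of all 22202 promoters. TCACGTGA was found in 4 of 39 (10.3%), against 1.15% of all promoters, and GAGGAAGT in 1 (Gusb), against 3.06%. Among coding genes with a TSS peak in either library, the shares were 10.5% for CACGTG, 1.98% for TCACGTGA and 3.09% for GAGGAAGT. The 4 promoters with TCACGTGA belong to Hexa, Mcoln1, Atp6v0d1 and Atp6v1a, and thus to an enzyme, a membrane channel and both sectors of the pump. They are shown 5′ to 3′ along the gene with TCACGTGA in capitals, because this palindrome was the one with the largest share in the members relative to all promoters.
Hexa promoter, chr9:59387224-59387523, plus strand: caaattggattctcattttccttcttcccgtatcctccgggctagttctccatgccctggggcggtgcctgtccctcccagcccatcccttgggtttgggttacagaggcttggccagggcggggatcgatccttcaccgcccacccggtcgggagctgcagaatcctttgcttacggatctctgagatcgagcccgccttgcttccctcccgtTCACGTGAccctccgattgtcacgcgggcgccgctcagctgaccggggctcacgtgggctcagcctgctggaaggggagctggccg
Mcoln1 promoter, chr8:3500256-3500555, plus strand: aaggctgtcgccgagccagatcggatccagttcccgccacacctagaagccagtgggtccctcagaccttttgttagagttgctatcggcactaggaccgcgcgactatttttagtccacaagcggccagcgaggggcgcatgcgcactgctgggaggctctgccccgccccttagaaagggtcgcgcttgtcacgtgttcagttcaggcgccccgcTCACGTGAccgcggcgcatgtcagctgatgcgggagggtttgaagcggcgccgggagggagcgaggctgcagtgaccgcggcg
Atp6v0d1 promoter, chr8:108089898-108090197, minus strand: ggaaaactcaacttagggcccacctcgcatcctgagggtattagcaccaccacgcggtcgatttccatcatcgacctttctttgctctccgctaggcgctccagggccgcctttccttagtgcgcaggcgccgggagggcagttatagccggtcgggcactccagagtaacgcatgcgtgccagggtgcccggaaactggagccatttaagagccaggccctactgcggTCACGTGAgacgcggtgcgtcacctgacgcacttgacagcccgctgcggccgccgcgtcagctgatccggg
Atp6v1a promoter, chr16:44139369-44139668, minus strand: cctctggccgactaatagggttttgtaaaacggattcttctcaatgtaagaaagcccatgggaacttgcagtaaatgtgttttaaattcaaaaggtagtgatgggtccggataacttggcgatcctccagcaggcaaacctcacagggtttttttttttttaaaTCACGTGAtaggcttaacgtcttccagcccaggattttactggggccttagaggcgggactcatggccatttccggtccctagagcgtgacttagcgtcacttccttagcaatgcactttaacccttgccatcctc
The capitals begin at position -36 relative to the TSS in Hexa, -33 in Mcoln1, -21 in Atp6v0d1 and -86 in Atp6v1a. Hexa and Mcoln1 hold a second CACGTG outside the capitals, at positions 15 and -58. The other CACGTG promoters were those of Arsa, Gaa, Glb1, Naglu, Sgsh, Lamp1, Atp6v1c1 and Atp6v1h, and Lamp1 held 4 copies, at positions -35, -19, -2 and 12. The median LPS to untreated gene-body ratio was 0.542 for the 12 members with CACGTG and 0.527 for the 27 without it, and 0.479 for the 4 with TCACGTGA and 0.531 for the 35 without it.

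In untreated macrophages these genes carried much Ser5-P Pol_II. A Ser5 peak called by the authors lay within 1 kb of the TSS of 38 of the 39 members (97.4%), against 48.0% of all coding genes, and of 36 members (92.3%) after LPS, against 46.0%. The median gene-body density of the members was 3.69 (2.3 to 5.66) TPM per kb untreated, 1.69 (1.09 to 2.52) after LPS and 0.779 (0.71 to 0.908) in the input, where a gene body runs from the first to the last base of the gene. Over all coding genes these medians were 0.42, 0.345 and 0.519. The body density was at least 2 times the input at 33 of 39 members untreated (84.6%, against 37.6% of 18300 coding genes with 10 or more tags) and at 20 of 39 after LPS (51.3%, against 32.9% of 18234). This measure depends on the scaling: with libraries scaled to tags outside peaks, 38 members untreated (against 55.1% of coding genes) and 33 after LPS (against 51.8%) were at least 2 times the input.

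After LPS the members as a group held less Ser5-P Pol_II. The LPS to untreated ratio of the gene body, with each library scaled to its own total, had a median of 0.527 (0.437 to 0.622) over the 39 members and 0.874 over the 17280 coding genes with 10 or more tags. A TPM at least 2 times lower was found at 17 of the 39 (43.6%), against 11.2% of coding genes, and one at least 2 times higher at 1 (2.56%), Cln3, against 5.83%. The counting interval of the ratio lay wholly below 1 at 33 members (84.6%, against 34.5%) and wholly above 1 at 3 (7.69%, against 14.9%), which were Npc2, Lamp2 and Cln3. Among the 10840 coding genes with a TSS peak in either library, a comparison added after the data were seen, 12.3% were at least 2 times lower, as were 16 of the 38 members among them (42.1%). Summed over the 39 gene bodies, the TPM went from 3970 to 2336, and the input held 942. Psap alone supplied 4249 of the 30239 untreated tags, and without it the summed ratio was 0.653 (0.64 to 0.666) in place of 0.588 (0.577 to 0.6).

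**Figure D1:**
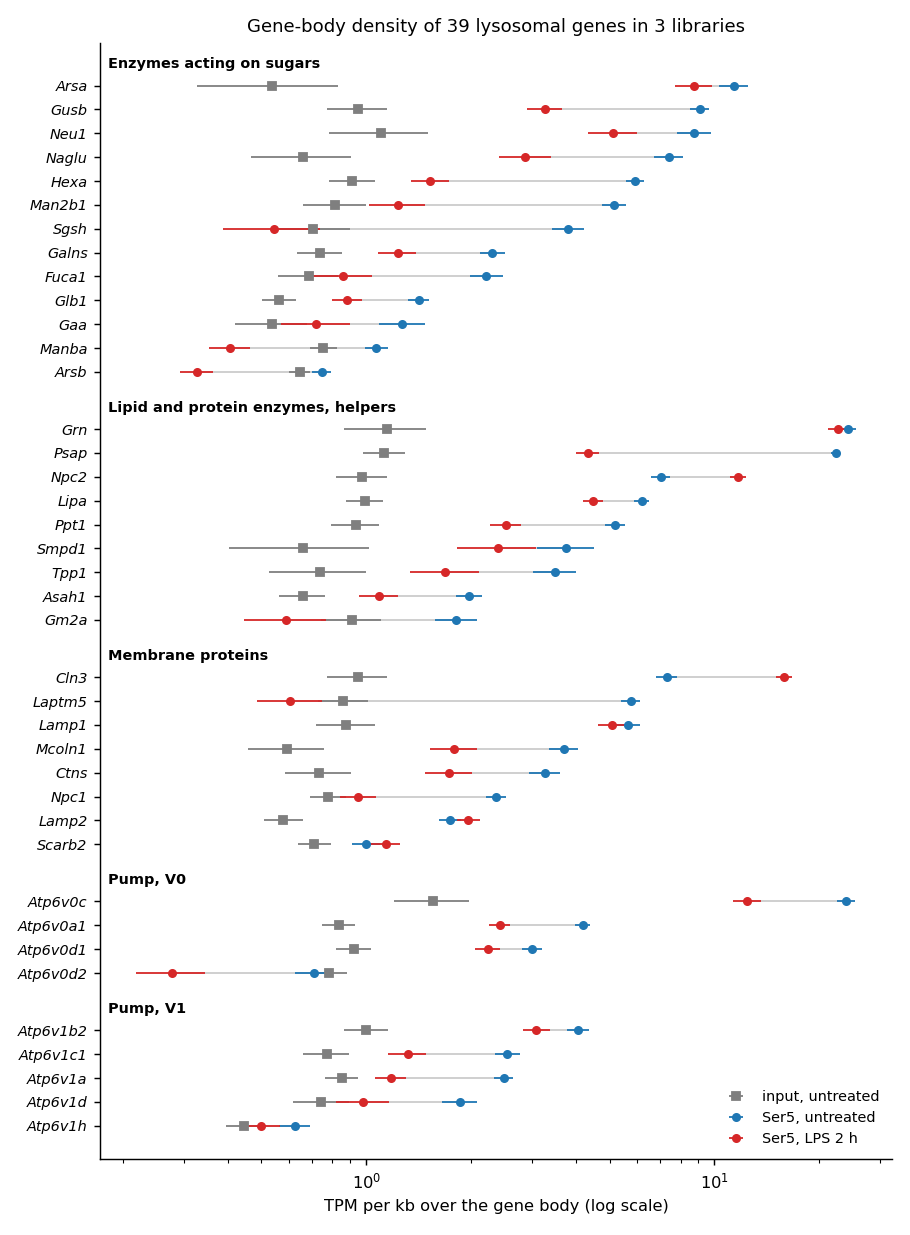
Gene-body density (TPM per kb, log scale) of the 39 genes in the Ser5-P Pol_II libraries (circles: blue untreated, red LPS 2 h) and in the input (grey squares), grouped by role and ordered within each by the untreated value; bars are 95% Poisson intervals. All values are scaled to the library total; most red points lie left of the blue ones, and on this scaling at Sgsh, Manba, Arsb, Gm2a, Laptm5 and Atp6v0d2 the red point lies left of the input; Npc2, Cln3, Lamp2 and Scarb2 have the red point on the right.

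Over the gene body, with libraries scaled to their totals, the enzymes of sugar chains were lower after LPS in every case. All 13 had a ratio interval below 1, against 34.5% of coding genes. The median ratio was 0.388, and 8 were at least 2 times lower, against 11.2% of coding genes. Within 1 kb of the TSS the intervals of Arsa, 0.84 (0.514 to 1.36), and Gaa, 0.704 (0.417 to 1.17), included 1. Arsa, arylsulfatase A, which removes sulphate from sulphatide, had the highest untreated density of the group, 11.4 TPM per kb, with 8.73 after LPS and 0.536 in the input, a ratio of 0.769 (0.658 to 0.897) and the mildest decrease of the 13. Its Ser5-P tags lay mostly in the first of 3 equal stretches from 1 kb after the TSS on, with 375 untreated and 229 after LPS. The later stretches held 9 and 5 tags untreated and 9 and 3 after LPS, and the TSS window 45 and 31. The body density and ratio of Arsa thus mainly describe that first stretch. A long non-coding RNA gene, C230037L18Rik, overlaps Arsa, and ChIP tags do not tell which strand was transcribed. Sgsh, the sulfamidase of heparan sulphate breakdown (ENSMUSG00000005043.7, chr11:119204739-119216850, minus strand), lay at the other end with densities of 3.81 untreated, 0.542 after LPS and 0.701 in the input, a ratio of 0.142 (0.10 to 0.197). After LPS Sgsh kept none of its 6 peaks. Its start lies 21 bases from that of Slc26a11 on the opposite strand, whose body ratio was 0.553 (0.413 to 0.733).

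Hexa, the alpha subunit of beta-hexosaminidase (ENSMUSG00000025232.6, chr9:59387474-59412914, plus strand), cuts the ganglioside GM2 together with the activator protein encoded by Gm2a. Its densities were 5.93 untreated, 1.53 after LPS and 0.913 in the input, a ratio of 0.258 (0.224 to 0.296). Gm2a itself had 1.81 TPM per kb untreated, 0.59 after LPS and 0.908 in the input, a ratio of 0.325 (0.237 to 0.44). Enzyme and activator were thus both at least 2 times lower. Man2b1, lysosomal alpha-mannosidase (ENSMUSG00000005142.9, chr8:87607168-87622638, plus strand), had densities of 5.15, 1.23 and 0.815 in the untreated, LPS and input libraries, a ratio of 0.239 (0.195 to 0.291). Manba, beta-mannosidase, had 1.07, 0.407 and 0.754, a ratio of 0.38 (0.325 to 0.443). Both mannosidases were lower after LPS, but the long Manba gene stood only 1.42 times above the input to begin with.

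Of the remaining enzymes of heparan, dermatan and keratan sulphate, Naglu, an N-acetylglucosaminidase, had densities of 7.4 untreated, 2.86 after LPS and 0.658 in the input, a ratio of 0.387 (0.317 to 0.469). Gusb, beta-glucuronidase, had 9.09, 3.26 and 0.946 in the same order, a ratio of 0.359 (0.313 to 0.41). Both stayed above the input after LPS, by 4.35 and 3.45 times. Galns, a sulphatase of keratan sulphate, had a ratio of 0.534 (0.459 to 0.62), from densities of 2.3 and 1.23, and a read-through gene record, Gm20388, spans it whole. Arsb, arylsulfatase B, extends over 171 kb and had a ratio of 0.437 (0.385 to 0.494). Its body density was 0.746 untreated, 0.326 after LPS and 0.645 in the input. The remaining 4, Fuca1 (alpha-fucosidase), Gaa (acid alpha-glucosidase, which degrades glycogen), Neu1 (sialidase) and Glb1 (beta-galactosidase), had ratios of 0.388, 0.566, 0.584 and 0.622. Neu1 had the highest density of these, 8.74 untreated and 5.11 after LPS, against 1.1 in the input.

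Among the 9 enzymes and helpers for lipids and proteins, 7 had a ratio interval below 1, against 34.5% of coding genes. The median ratio was 0.55, and 4 were at least 2 times lower, against 11.2% of coding genes. Psap (ENSMUSG00000004207.7, chr10:59740375-59765345, plus strand) encodes prosaposin, the precursor of the saposins that present sphingolipids to their enzymes. It had more untreated Ser5-P tags than any other member, 4249 untreated, 676 after LPS and 212 in the input. Per length this was 22.3, 4.33 and 1.13 TPM per kb, a ratio of 0.194 (0.179 to 0.21). Untreated, 8 peaks covered 97.6% of the gene, and after LPS 11 peaks covered 21%: the number of peaks was higher while the cover was lower. Grn, which encodes progranulin, a secreted and lysosomal growth factor, differed from Psap, with body densities of 24.2 untreated and 22.7 after LPS, 1.15 in the input, and a ratio of 0.939 (0.86 to 1.02). It was the member with the highest untreated density, and its ratio changed side with the scaling, to 1.01 when libraries were scaled to tags outside peaks.

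Npc2, a soluble cholesterol-binding protein that hands cholesterol to NPC1, was higher after LPS (ENSMUSG00000021242.8, chr12:86095510-86114062, minus strand). Its densities were 7.01 untreated, 11.7 after LPS and 0.973 in the input, a ratio of 1.67 (1.54 to 1.81). The start of Isca2 lies 158 bases away on the opposite strand, and its body ratio was 1.32 (1.02 to 1.7). From 1 kb after the TSS on, Npc2 had 644 tags untreated and 1016 after LPS, a ratio of 1.92 (1.74 to 2.13), so the difference was as large away from the shared start. Npc1, the membrane transporter that takes over the cholesterol, had densities of 2.36 untreated, 0.949 after LPS and 0.779 in the input, and a ratio of 0.402 (0.35 to 0.461). The partners of this step therefore stood on opposite sides of 1, with intervals that did not overlap.

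Lipa, the acid lipase that frees cholesterol from its esters, kept 0.725 (0.669 to 0.784) of its untreated value, with densities of 6.19 and 4.48 against 0.993 in the input. Ppt1, a thioesterase that removes palmitate from proteins, had 5.19 and 2.52 against 0.932, a ratio of 0.485 (0.428 to 0.549). Tpp1, a tripeptidyl peptidase, had 3.49 and 1.69 against 0.735, a ratio of 0.483 (0.366 to 0.63). All of these were lower after LPS, Lipa the least. Asah1 (acid ceramidase) and Smpd1 (acid sphingomyelinase), successive enzymes of sphingomyelin breakdown, had ratios of 0.55 (0.469 to 0.643) and 0.636 (0.457 to 0.876).

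The 8 membrane proteins were the most divided group, with ratios from 0.105 to 2.18 and a median of 0.714. Intervals lay below 1 for Laptm5, Npc1, Mcoln1 and Ctns, above 1 for Lamp2 and Cln3, and included 1 for Lamp1 and Scarb2. Laptm5 (ENSMUSG00000028581.10, chr4:130469040-130492056, plus strand), a lysosomal transmembrane protein of blood cells, had the lowest ratio of all 39, 0.105 (0.0834 to 0.131), from 1009 tags untreated, 87 after LPS and 149 in the input. Its densities were 5.76, 0.605 and 0.859. The TSS of its longest coding transcript belongs to a record that is incomplete at the 5′ end, and 1 kb around the 5′ end of the whole gene record held 230 tags untreated, 19 after LPS and 16 in the input, a ratio of 0.101 (0.0595 to 0.161).

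The structural membrane glycoproteins had body ratios closer to 1. Lamp1 had densities of 5.66 untreated, 5.08 after LPS and 0.877 in the input, and a ratio of 0.896 (0.798 to 1.01). Its TSS window and the rest of its body lay on opposite sides of 1, with a ratio of 1.25 (1.01 to 1.54) at the TSS and 0.771 (0.673 to 0.882) from 1 kb after it on. Lamp2, which also serves in chaperone-mediated autophagy, had 1.74, 1.96 and 0.578 in that order, and a ratio of 1.13 (1.02 to 1.26). Scarb2, known as LIMP-2 and as the carrier of glucocerebrosidase to the lysosome, had 1.0, 1.14 and 0.71, and a ratio of 1.14 (0.997 to 1.3). These 3 ratios lay within or near the range between the quartiles of all coding genes, 0.665 to 1.14. Mcoln1, a calcium channel of the lysosomal membrane, and Ctns, the cystine exporter, had lower ratios, 0.485 (0.402 to 0.582) and 0.531 (0.44 to 0.639).

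Cln3, a membrane protein mutated in juvenile Batten disease (ENSMUSG00000030720.10, chr7:133714721-133729331, minus strand), was the only member at least 2 times higher after LPS. Its tags numbered 811 untreated, 1451 after LPS and 104 in the input, or 7.29, 15.9 and 0.945 TPM per kb, a ratio of 2.18 (2.0 to 2.38). Its 5′ end is shared with Apobr, which encodes a lipoprotein receptor of macrophages, starts 875 bases inside Cln3 on the opposite strand and runs out over the Cln3 start. Apobr had 327 tags untreated and 1085 after LPS, a ratio of 4.04 (3.57 to 4.59), and the tags within the shared stretch cannot be told apart. In the part of Cln3 from 1 kb after the TSS, which Apobr does not overlap, there were 510 tags untreated and 972 after LPS, a ratio of 2.32 (2.09 to 2.59). The difference was thus as large outside the overlap, and it was 2.18, 2.27 and 2.81 in 3 successive equal stretches of that part.

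**Figure D2:**
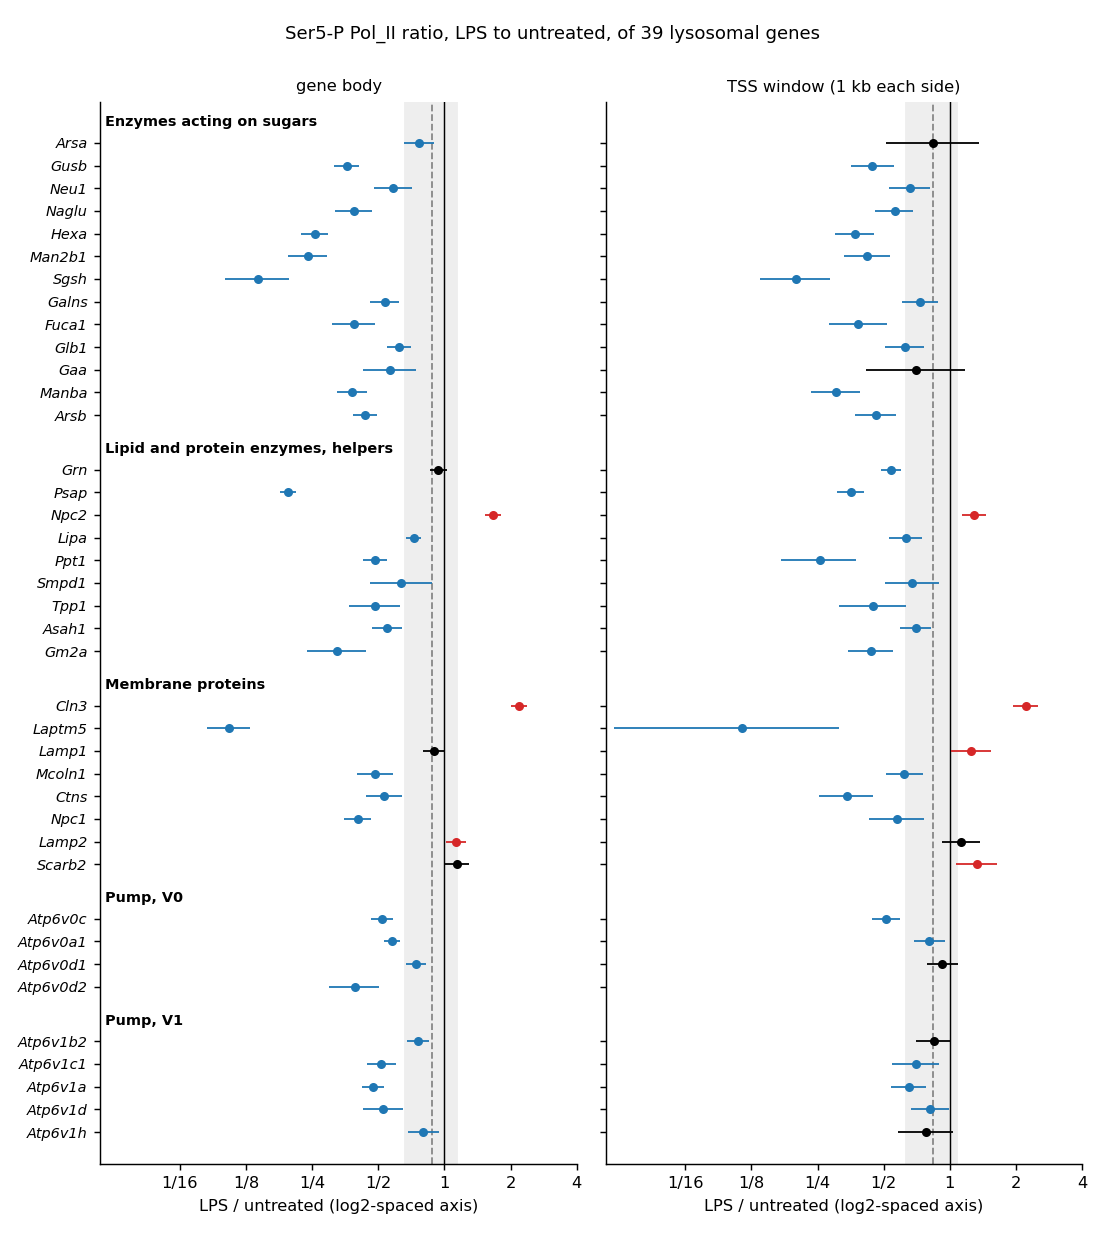
LPS to untreated ratio of TPM (log2-spaced axis) over the gene body (left, 39 genes) and within 1 kb of the TSS (right, 38 genes with 10 or more tags), with 95% counting intervals; blue, interval below 1; red, above 1; black, includes 1. The grey band and dashed line are the quartiles and median of all coding genes; the sugar enzymes and both pump sectors lie left of 1 in the gene body, while the membrane proteins spread from Laptm5 at 0.105 to Cln3 at 2.18.

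With libraries scaled to their totals, all 9 pump subunits among the members had a gene-body interval below 1, against 34.5% of coding genes. Within 1 kb of the TSS the intervals of Atp6v0d1, Atp6v1b2 and Atp6v1h included 1. In the V0 sector, Atp6v0c, the proton-carrying ring subunit, had the highest untreated density, 23.9 TPM per kb, with 12.4 after LPS and 1.55 in the input, a ratio of 0.52 (0.465 to 0.581). In this gene 25% of positions start a run of 30 bases found elsewhere in the genome, the highest share among the members, and with tags from those positions left out the ratio was 0.537. Atp6v0a1, an a subunit, had 1728 tags untreated, 819 after LPS and 341 in the input, a ratio of 0.578 (0.531 to 0.628), and its peaks went from 36 to 9. The d subunits are encoded by a broadly used gene and one known from osteoclasts and macrophages. The former, Atp6v0d1, had densities of 3.0 and 2.24 against 0.919 in the input, a ratio of 0.746 (0.672 to 0.828). The latter, Atp6v0d2, had 0.709 and 0.276 against 0.783, a ratio of 0.39 (0.299 to 0.504), with 0, 2 and 7 tags within 1 kb of its TSS in the untreated, LPS and input libraries and no TSS peak in either. Its Ser5-P tags lay mostly in the middle of 3 equal stretches from 1 kb after the TSS on, with 216 untreated, 53 after LPS and 105 in the input, a ratio of 0.299.

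Of the V1 subunits, Atp6v1b2, one of the ATP-hydrolysing pair, had the highest untreated density, 4.06, with 3.08 after LPS and 1.0 in the input, a ratio of 0.759 (0.676 to 0.851). Its partner Atp6v1a had 2.48, 1.18 and 0.851 in that order, a ratio of 0.474 (0.421 to 0.533). The pair forms the catalytic ring of the pump, and the intervals of the ratios did not overlap. The stalk subunits Atp6v1c1 and Atp6v1d had ratios of 0.517 (0.444 to 0.60) and 0.527 (0.425 to 0.651), and the regulatory subunit Atp6v1h had 0.802 (0.68 to 0.944), the mildest of the sector. Atp6v1h stood only 1.4 times above the input untreated and 1.12 times after LPS.

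In most members the difference was smaller near the start site than along the gene. Within 1 kb of the TSS the median ratio was 0.625 (0.46 to 0.704) over the 38 members with 10 or more tags and 0.835 over 12495 coding genes. A TPM at least 2 times lower was found at 13 of the 38 (34.2%, against 14.0% of coding genes), and one at least 2 times higher at 1 (2.63%, against 5.71%), again Cln3 with 358 tags untreated, 649 after LPS and 22 in the input. The interval lay below 1 at 28 members (73.7%, against 37.9% of coding genes), above 1 at 4 (10.5%, against 11.8%), which were Npc2, Cln3, Lamp1 and Scarb2, and included 1 at 6. The ratio from 1 kb after the TSS to the gene end was lower than that at the TSS in 28 of 38 members, and its quotient by the TSS ratio had a median of 0.784 (0.685 to 0.975). Over the 11773 coding genes with tags in both stretches, 45.3% had the lower ratio in the body and the median quotient was 1.05. By role, the median TSS ratios were 0.46 for the sugar enzymes, 0.54 for lipid and protein enzymes and helpers, 0.871 for membrane proteins, 0.806 for the 3 V0 genes with tags and 0.778 for V1.

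The share of a gene's tags that lay near its start shows the same in single genes. Man2b1 had 41.9% of its tags within 1 kb of the TSS untreated, 64.2% after LPS and 12.4% in the input. For Psap these shares were 20.2%, 35.1% and 6.48%. Both genes thus had the larger difference along the gene and not at its start. The opposite held for Grn, with 59.6% untreated and 43.9% after LPS, and its TSS window had 1087 tags untreated and 482 after LPS, a ratio of 0.54 (0.484 to 0.602), against 1.02 (0.914 to 1.14) from 1 kb after the TSS on. That value joins unlike stretches of Grn: the ratio was 1.235 (1.069 to 1.425), 0.934 (0.745 to 1.17) and 0.624 (0.476 to 0.812) in 3 successive equal stretches. Ppt1 and Ctns also had lower ratios at the TSS, 0.256 (0.17 to 0.375) and 0.339 (0.254 to 0.448), than in the remaining body, 0.521 (0.458 to 0.591) and 0.605 (0.488 to 0.747). In both genes the last of 3 equal stretches of that body held the most tags, in Ppt1 600 untreated and 251 after LPS. The first stretch had ratios of 0.366 (0.203 to 0.628) in Ppt1 and 0.47 (0.29 to 0.743) in Ctns, with intervals that overlapped those at the TSS. Over the members the median share was 33% untreated, 37% after LPS and 12.4% in the input, and it was higher after LPS in 29 of 39 (74.4%), against 45.2% of 15973 coding genes with 10 or more tags in each library. Over all coding genes the median shares were 34.6%, 33.7% and 12%, so the members' median moved up and that of all genes slightly down. Among coding genes with a TSS peak in either library the medians were 51.1%, 50% and 14.2%, so the members had a lower share than these in both Ser5-P libraries.

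**Figure D3:**
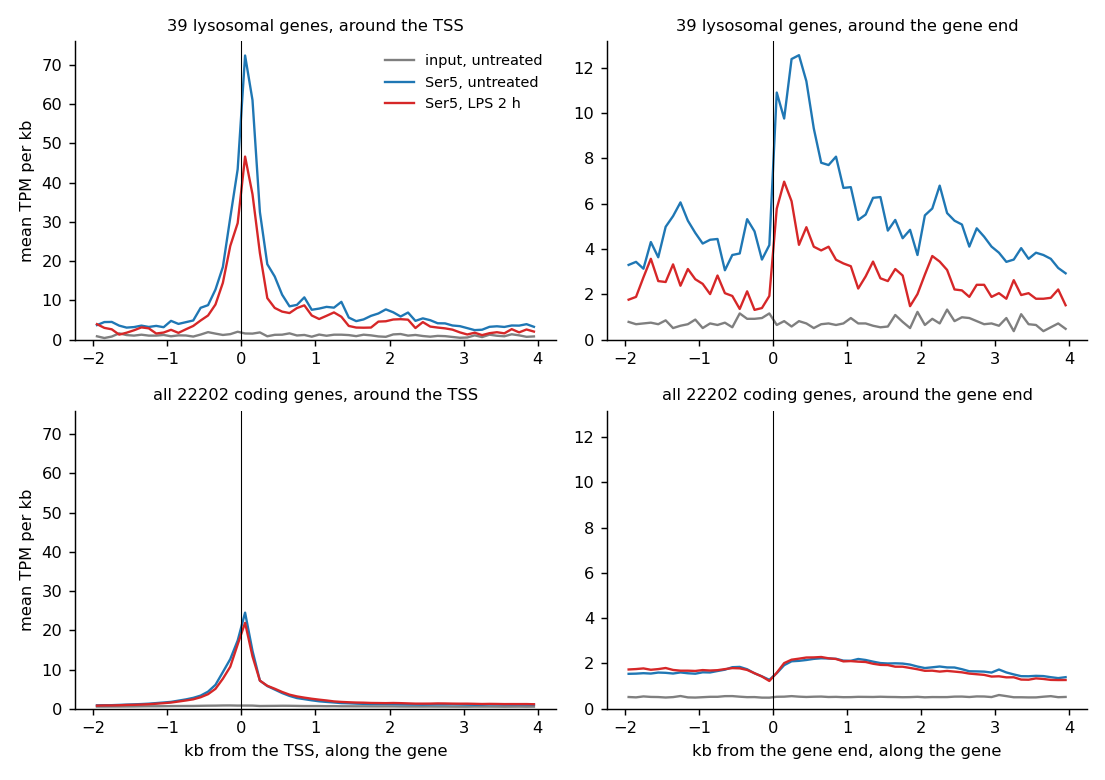
Mean density (TPM per kb, bins of 100 bp) around the TSS (left) and the gene end (right) for the 39 genes (top) and all 22202 coding genes (bottom), in the untreated (blue) and LPS (red) Ser5-P libraries and the input (grey); vertical scales are shared within each column. Over the 39 genes the untreated line lies above the LPS line at the TSS, with highest bins of 72.4 and 46.7, and beyond the gene end; over all genes the lines lie close together, with highest bins of 24.5 and 21.9.

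The density of Ser5-P tags was also high just beyond the ends of these genes, and this too was lower after LPS. In the first kb after the gene end the mean density of the members was 9.67 TPM per kb untreated, 4.71 after LPS and 0.684 in the input. In the last kb before the end it was 4.15, 1.94 and 0.827 in the same order, so that the density after the end was higher than before it in both Ser5-P libraries and not in the input. Over all coding genes the first kb after the end had 2.09 untreated and 2.13 after LPS. A few genes weigh heavily in these means: of the members' 4454 untreated tags in the 2 kb after the end, Atp6v0c held 878, Psap 438 and Tpp1 336. Other genes were not left out of these stretches, so tags there cannot all be assigned to the member. At Tpp1 the whole gene body held only 197 untreated tags. Per gene, the median ratio of these 2 kb was 0.499 (0.39 to 0.638) over 38 members and 0.779 over 11142 coding genes. Lower values after LPS were found along the whole length of the genes. Split into 3 equal stretches from 1 kb after the TSS on, the members had median ratios of 0.47, 0.442 and 0.518. Psap had 0.174, 0.173 and 0.15 in its 3 stretches and Hexa 0.228, 0.276 and 0.233. In Laptm5 the ratio was 0.19 in the first stretch and 0.0516 in the last, and in Npc2 it was 2.24 in the first and 1.5 in the last.

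The peaks that the authors called in each library against the input were also counted over the gene bodies. The covered share of a gene depends on density relative to the calling threshold and does not measure how far Pol_II reached. The 39 gene bodies overlapped 320 of 53467 peaks untreated and 153 of 49371 after LPS. Peaks were fewer after LPS at 28 members (71.8%), more at 7 (17.9%) and as many at 4, and the covered share of the gene was lower at 33 (84.6%) and higher at 6 (15.4%). Among the 12178 coding genes with a peak in the body in either library, peaks were fewer at 40.7% and more at 23.3%, and the covered share was lower at 62.2% and higher at 37.1%. The share went from 63.2% to 10.2% at Gusb, from 53.9% to 7.88% at Naglu, from 45% to 4.31% at Hexa and from 44.8% to 8.34% at Neu1. At each of these enzymes the peaks left after LPS numbered 1 to 3. Laptm5 had 19 peaks over 51.8% of its length untreated and none after LPS, and Sgsh had 6 over 25% and none. These were also the genes whose TSS window held a peak in the untreated library only. Cln3 went the other way, from 42% to 87.6%, with a longest peak of 7600 bp after LPS, and Npc2 went from 51.3% to 75.5%. Peak calling depends on depth, and the LPS library held fewer tags.

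**Figure D4:**
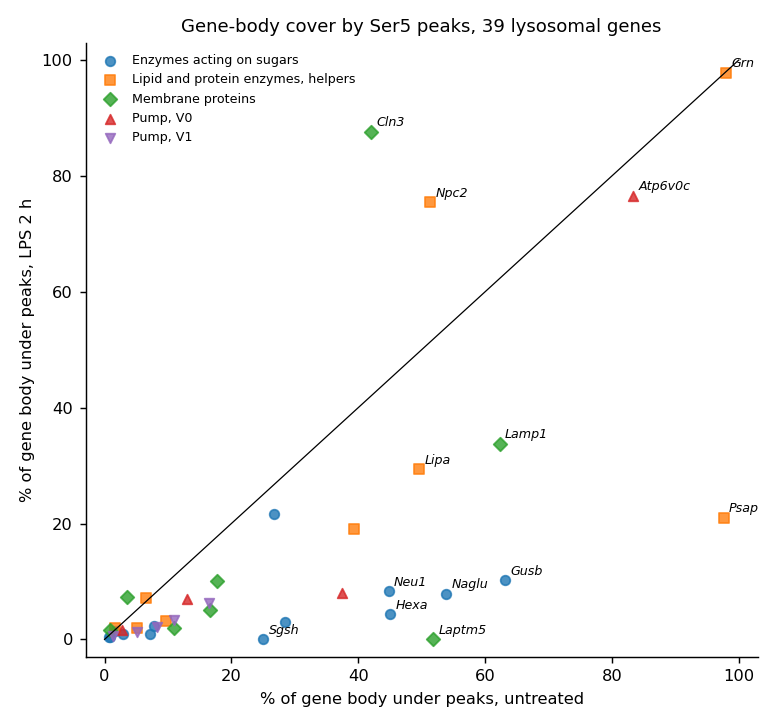
Percent of the gene body under Ser5 peaks in the untreated library (horizontal) and after LPS (vertical) for the 39 genes, with marker shapes by role and a line of equal cover; named genes are those far from the line or with high cover. Psap, Gusb, Naglu, Hexa, Neu1 and Laptm5 lie far below the line, Grn and Atp6v0c near it, and Cln3 and Npc2 above it.

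The rest of the lysosomal genes were set beside the members from lists of the same pathway. Of all coding genes with 10 or more tags, 11.2% had gene-body ratios of 0.5 or less and 5.83% of 2 or more. These shares stand beside the counts of each list. Of 17 other lysosomal hydrolases, 9 had gene-body ratios of 0.5 or less and none of 2 or more, with a median ratio of 0.497. They included Dnase2a, the acid DNase, with 0.258 (0.221 to 0.30). Of 12 cathepsins, the lysosomal proteases, 3 were lower by that measure and 1 higher, with a median of 0.86: Ctsd had 0.159 (0.145 to 0.173), Ctsa, which shields Neu1 and Glb1 in a complex, 0.231 (0.205 to 0.261), Ctsb 0.368 (0.351 to 0.387), and Ctsc 7.08 (6.6 to 7.61). Of 10 other membrane proteins, 4 were lower, among them Cd68 with 0.263 (0.216 to 0.317), and 1 higher, the chloride-proton exchanger gene Clcn7 with 2.15 (1.95 to 2.36). The 16 other pump subunits had a median of 0.869, near that of all coding genes. By the same measure 2 were lower (Atp6v0e2 and Atp6v1e2, the latter on 10 tags with an interval of 0.0315 to 1.53) and none higher. Among the members, 1 of 4 V0 and 1 of 5 V1 subunits were lower by it. The counting interval lay below 1 at 5 of the 16, against 34.5% of coding genes, and above 1 at 2, against 14.9%. It lay below 1 at all 9 pump subunits among the members. Untreated Ser5-P to input ratios of the 16 ran from 0.194 to 16.9, so some of their LPS ratios compare densities below the input. The choice of subunits therefore bears on how the pump as a whole appears.

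Of 6 genes for sorting enzymes to the lysosome, the receptors Igf2r and Sort1 were at least 2 times lower, against 11.2% of coding genes. Their ratios were 0.29 (0.256 to 0.329) and 0.376 (0.297 to 0.472). The genes of the MiT/TFE factors differed among themselves. Tfeb (Tcfeb in the annotation) had densities of 2.87 untreated, 0.806 after LPS and 0.82 in the input, a ratio of 0.281 (0.245 to 0.32). Mitf had 1.45, 4.32 and 0.808, a ratio of 2.98 (2.84 to 3.12). Tfec had 0.557, 1.53 and 0.569, a ratio of 2.74 (2.38 to 3.17), and its untreated density was thus near the input. Tfe3 (Tcfe3 in the annotation) had the highest untreated density of the 4, with 6.87, 6.265 and 0.683, and a ratio of 0.911 (0.81 to 1.025). Of the 4 genes, 1 was thus at least 2 times lower, 2 were at least 2 times higher, and Tfe3 was neither. Osteoclast markers, listed because Atp6v0d2 and Acp5 are used there too, had a TSS peak in 1 of 5 genes untreated and in none after LPS.

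**Figure D5:**
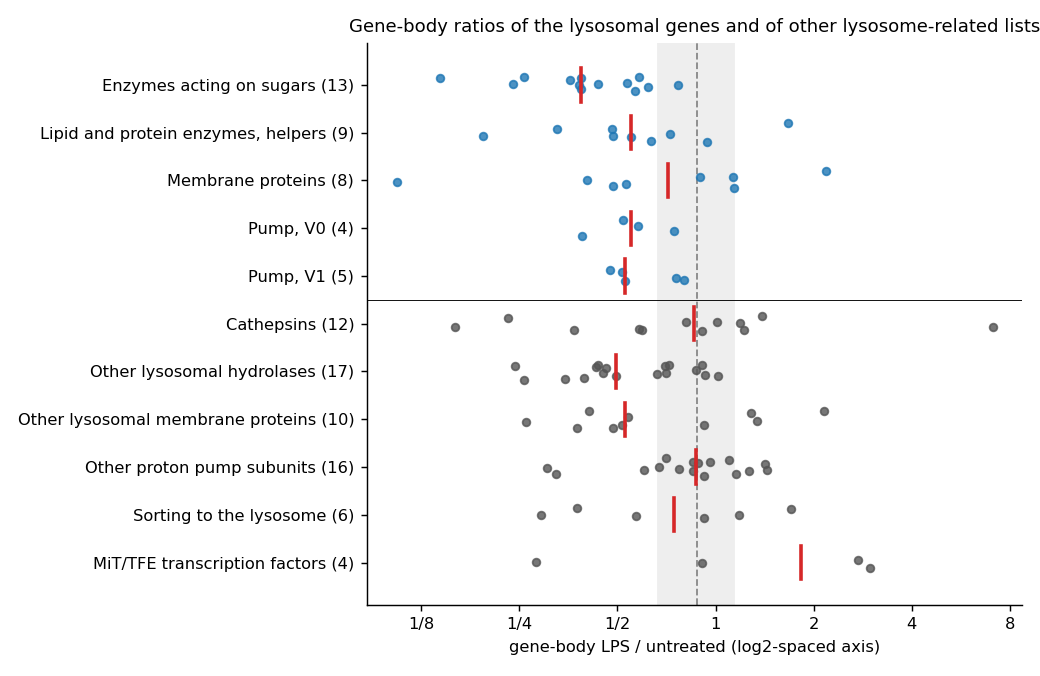
Gene-body LPS to untreated ratios (log2-spaced axis; 1 point per gene with 10 or more tags, number of genes in parentheses) of the members by role (blue, upper 5 rows) and of other lysosome-related lists (grey, lower 6 rows); red bars are medians, and the grey band and dashed line are the quartiles and median of all coding genes. The medians of sugar enzymes (0.388) and other hydrolases (0.497) lie left of the band, and that of the other pump subunits (0.869) lies inside it.

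Several ratios lay near the threshold of 2 times. Ppt1, Mcoln1 and Tpp1, at 0.485, 0.485 and 0.483, were just inside it, and Atp6v1c1, Atp6v0c, Atp6v1d, Ctns and Galns, at 0.517 to 0.534, just outside, with intervals that overlapped throughout. At 8 members another gene starts within 1 kb of the TSS, and 10 are overlapped by another gene record. Scaled to library totals, the body density after LPS was below the input at 6 members, Sgsh, Manba, Arsb, Gm2a, Laptm5 and Atp6v0d2, but this side depends on the scaling. With libraries scaled to tags outside peaks, the Ser5-P to input ratio after LPS was 1.59 (1.05 to 2.39) at Sgsh, 1.11 (0.943 to 1.31) at Manba, 1.04 (0.916 to 1.18) at Arsb, 1.34 (0.946 to 1.88) at Gm2a and 1.45 (1.1 to 1.9) at Laptm5, and Atp6v0d2 alone was below the input, at 0.726 (0.558 to 0.937). A lower density cannot be told apart here into fewer cells with Pol_II on the gene and less Pol_II per cell.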

How the data were processed

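Ser5-P reads of 76 bases were shortened from the 3′ side by the authors (trimming of the input is not given in the sources used here), and reads were placed on mm9 by Bowtie (version not given in the sources used here), where a read had to fit 1 place with 2 mismatches or fewer. MACS then gave the peaks of the untreated and of the LPS library under a p-value threshold of 1e-05, with the input as control. The deposited files hold 1 line per aligned tag with its position and strand, and peak lists with a score that per the file headers and values is -10 times log10 of the p-value, 50 at the lowest. Tags were 45 bases long in the untreated Ser5-P library, 30 in the LPS library and 36 in the input, so repeated sequence was lost unequally. The study's methods give the Ser5-P lengths the other way round, and the libraries were used as labelled.

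Here the 5′ ends of tags on chromosomes 1 to 19 and X were counted over gene bodies and within 1 kb of the TSS of the transcript with the longest coding sequence (GENCODE M1), with Python 3.11.15, numpy 2.4.6, scipy 1.17.1, pandas 2.3.3 and numba 0.67.0. Counts were divided by the library total. Intervals are exact (Poisson, binomial and conditional for ratios; order statistics for medians). A gene with 10 or more tags over both libraries was called at a ratio of 2 times or more, and counts of 0 entered densities and ratios unchanged. The counting was checked on simulated data. With 1 library per condition no test was made. All members were described by role, and the text names those with the highest untreated density, the 5 highest and 5 lowest ratios and those with a TSS peak in 1 library. From other lists it names only called genes, apart from Tfe3. The members and lists were chosen with earlier results of these data known. Older symbols were matched through RefSeq synonyms, and promoter sequence was read from the mm9 genome.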

Additional observations from a re-analysis of the deposited data

How the results depend on the processing

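With 1 library per condition, precision is limited to counting error, and LPS, culture and library cannot be told apart. No paired analysis was possible because each condition has 1 library. The median gene-body ratio of the members lay between 0.497 and 0.603 when libraries were scaled to tags outside peaks, the ratios were centred on all coding genes, copies of 1 position were dropped, tags were moved 75 bp, the first kb was left out, tags were kept only where their 30-base start is found once in the genome or, in a choice made after seeing the data, parts shared with other genes were left out. Scaling to tags outside peaks moved the median of all coding genes from 0.874 to 0.941 and that of the members from 0.527 to 0.567. The members at least 2 times lower numbered 13 to 19 over these alternatives, where 7.48% to 12.3% of coding genes were as much lower, and Cln3 stayed the 1 at least 2 times higher. At 1.5 times in place of 2 times, 28 members were lower (25.2% of coding genes) and 2 higher (12% of coding genes). At the TSS the median ratio lay between 0.617 and 0.673, with 10 to 13 members at least 2 times lower (11.7% to 14.1% of coding genes). The median Ser5-P to input ratio of the bodies moved from 4.75 to 9.09 untreated and from 2.29 to 4.72 after LPS with scaling to tags outside peaks. With that scaling, a choice made for these counts after seeing the data, 33 members in place of 20 were at least 2 times the input after LPS, and those below the input went from 6 to 1 after LPS and from 1 to 0 untreated. No member that was 2 times higher or lower changed direction. Of the ratios near 1, that of Grn moved above 1 with scaling outside peaks (1.01), with centring (1.07) and without the first kb (1.02), and that of Lamp1 with centring (1.03).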

Other observations

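Several lysosomal genes share a start region with a gene of another function on the opposite strand, and the gene bodies of such pairs were read side by side. Atp6v1a and Naa50, an N-terminal acetyltransferase gene that starts 525 bases away, had LPS to untreated ratios of 0.474 (0.421 to 0.533) and 0.512 (0.415 to 0.628). Atp6v1d had 0.527 (0.425 to 0.651), while Eif2s1, a translation initiation factor gene 181 bases away, had 1.0 (0.847 to 1.19), and the intervals did not overlap. Ctns had 0.531 (0.44 to 0.639) and Shpk, 418 bases away, had 0.668 (0.475 to 0.931). The Shpk body held 104 tags untreated and 96 in the input. Galns had 0.534 (0.459 to 0.62) and Trappc2l, 285 bases away, had 0.711 (0.53 to 0.949). These body values include the first kb after each start. Counted from 1 kb after its own TSS, the ratio was 0.956 for Shpk (51 tags untreated, 40 after LPS) and 0.427 for Trappc2l (40 and 14). Counted in that way, it was 0.478 for Naa50 and 1.03 for Eif2s1. From 1 kb after the TSS on, Apobr had 88 tags untreated and 653 after LPS, a ratio of 9.04, against 2.32 for the same stretch of Cln3.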
